A study of Mus musculus with 16 samples.

Results

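The 40 genes described here encode collagens, laminins and other proteins of the extracellular matrix. They were listed by name and kept where their mean level over 16 libraries reached 1 CPM (counts scaled to a library size of 1e6), a rule that all 40 passed. They stand among 15380 genes of that level, out of 51912 in the deposited table, and comprise 5 fibrillar collagen genes, 18 basement membrane genes and 17 other matrix genes, Matn2 included. RNA was isolated from RPE (retinal pigment epithelium), a sheet of pigmented cells that supports the photoreceptors, in male C57BL/6 mice aged 40 weeks. Wild-type mice were compared with mice lacking Sucnr1, which encodes the cell-surface receptor for succinate, and hydroquinone, an oxidant, was given to some mice of either genotype. This made 4 groups: untreated and exposed wild type, and untreated and exposed knockout, with 4 libraries in each and 1 eye per library. By the titles these came from 2, 4, 3 and 4 mice, respectively, while the protocol gives 4 animals per group. The dose and route of hydroquinone, and whether the knockout covers the whole body, are not given in the sources used here.

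Matrix of this kind lies on the outer side of the RPE. The RPE basement membrane, the basement membrane of the choroidal capillaries and the collagen and elastin layers between them together form Bruch's membrane, which thickens with age and carries the deposits of age-related macular degeneration. Basement membranes are built from a laminin sheet and a collagen IV sheet joined by nidogens and the proteoglycans perlecan and agrin. Fibrillar collagens I, III and V, made chiefly by fibroblasts, give the sclera and choroidal stroma their strength.

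Libraries held 21113549 to 35332444 counts, with 17904 to 24477 genes detected, and the 40 genes took 0.599% to 0.970% of the counts. In the labels, the identifier of a library holds a letter in some cases and none in others, with 2 of each form per group except exposed wild type, which has 3 without a letter and 1 with one. RPE markers were high in every library: Rpe65, the retinoid isomerase of the RPE, had between 57438 and 113564 counts. Markers of other tissue were also present, among them the corneal keratin gene Krt12 (7467 to 358894 counts) and the skeletal muscle creatine kinase gene Ckm (4648 to 18138 counts). Sucnr1 had 29 counts over the wild-type libraries and 4 over the knockout libraries, and 0 counts in 4 wild-type and 6 knockout libraries. A count of 0 allows 0.0849 to 0.142 CPM (3 counts, counting error only), so the genotype labels could not be checked with it at this depth.

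Some collagen chains that assemble into one molecule are encoded head to head, and the stretches before 3 members are shown because these genes recur in the results. Col4a3 and Col4a4 start 71 bases apart on opposite strands, so the stretch between them, chr1:82586850-82586920 on GRCm38.p6, precedes both; it is given on the minus strand, 5′ to 3′, as Col4a4 reads it. Col8a1 (chr16:57754738-57754987, minus strand) and Col8a2 (chr4:126286544-126286793, plus strand), the chains of collagen VIII, lie on different chromosomes, and 250 bases before each start are shown. The sequences are from RefSeq, whose promoter table held 28 of the 40 members, and capitals mark GGGCGG or its reverse complement CCGCCC.
Col4a4 to Col4a3: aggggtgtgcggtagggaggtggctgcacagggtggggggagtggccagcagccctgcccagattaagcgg
Col8a1: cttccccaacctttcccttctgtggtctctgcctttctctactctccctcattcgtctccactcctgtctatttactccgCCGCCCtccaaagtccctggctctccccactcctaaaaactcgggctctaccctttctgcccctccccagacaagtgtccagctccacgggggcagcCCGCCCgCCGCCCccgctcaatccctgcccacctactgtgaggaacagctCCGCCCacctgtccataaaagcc
Col8a2: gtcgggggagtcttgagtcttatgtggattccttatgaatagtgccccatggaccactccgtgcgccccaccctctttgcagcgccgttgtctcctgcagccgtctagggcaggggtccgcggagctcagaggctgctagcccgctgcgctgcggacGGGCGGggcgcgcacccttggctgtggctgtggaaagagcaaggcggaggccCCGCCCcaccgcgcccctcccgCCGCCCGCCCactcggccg
Each collagen VIII stretch held 4 matches to GGGCGG on either strand, with 2 of those before Col8a2 overlapping, whereas the 71 bases between Col4a4 and Col4a3 held none. GGGCGG was found in 32.7% of 32851 windows of 250 bases and in 20.7% of windows of 71 bases. Searched on both strands, TATAAA (in 12.4% of 250-base windows), CCAAT (in 33.8%), CATGTG (in 12.3%) and TAATCC (in 6.25%) had no match in the 3 stretches. The GC content was 60.8% before Col8a1, 70.0% before Col8a2 and 69.0% between the collagen IV genes, against medians of 52.4% over 250-base and 54.9% over 71-base windows. A match in such a window is a description of its letters and not evidence of a bound site. Col4a1 and Col4a2 are also head to head, and their annotated exons overlap by 22 bases.

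**Figure D1:**
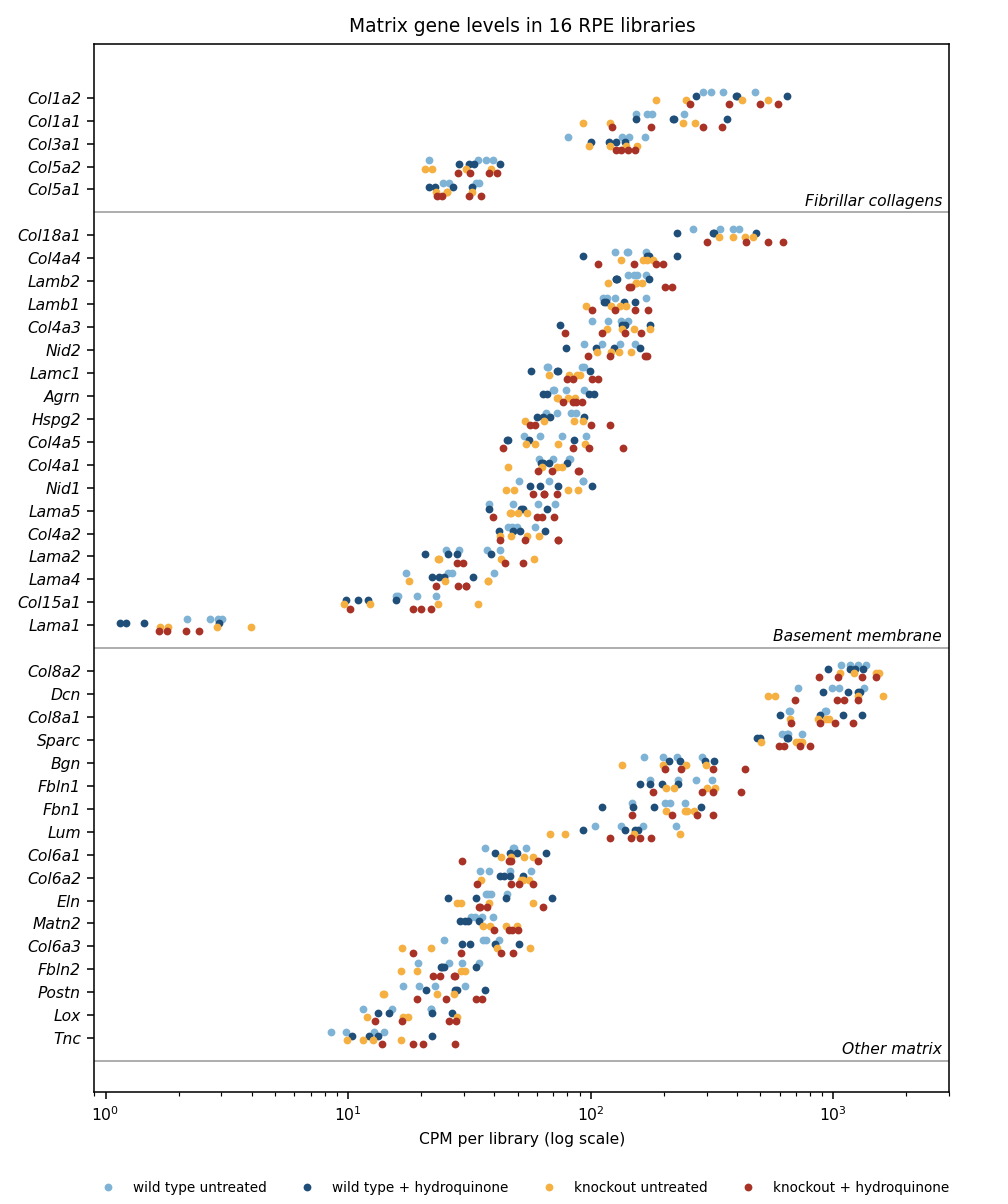
Level of each of the 40 matrix genes in each of 16 libraries, in CPM on a log axis, coloured by group and ordered by mean level within the 3 gene groups. Col8a2 and Dcn lay highest and Lama1 lowest, and the 4 colours overlapped for nearly every gene.

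Among the members, the collagen VIII chain gene Col8a2 had the most abundant transcript per length, and the other chain gene, Col8a1, ranked 4. Over the 16 libraries Col8a2 averaged 273 CPM per kilobase of exon and Col8a1 averaged 114, against a median of 5.49 for all tested genes and 10.0 for the 40 members. Collagen VIII is a short-chain collagen of Descemet's membrane in the cornea and of vessel walls. Between its 2 chains stood Dcn, a small proteoglycan that binds collagen fibrils, with 180 CPM per kilobase, and Sparc, a collagen-binding matricellular protein, with 171. Lum and Bgn, proteoglycans of the same family as Dcn, had 58.7 and 41.1 CPM per kilobase, and Fbln1, a basement membrane and elastic fibre glycoprotein, had 57.3. Kera and Slc4a11, markers of corneal keratocytes and corneal endothelium, averaged 3.46 and 13.8 CPM, so transcripts of the front of the eye were present, and their part in the collagen VIII level was not tested.

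Basement membrane genes were led by Col18a1, the source of endostatin, with 55.8 CPM per kilobase. The laminin chain gene Lamb2 followed with 25.4 and Nid2, a nidogen, with 24.4. As means over the 16 libraries, Col4a4 (14.9), Col4a3 (13.05) and Col4a5 (10.8) were above Col4a1 (9.48) and Col4a2 (8.07), the chains of the ubiquitous network. Chains of the former genes form the network that is defective in Alport syndrome. These differences were not tested. In CPM per library, not divided by length, Col4a3 ran from 74.4 to 175 and Col4a1 from 45.4 to 89.3. Within each library Col4a3 had the higher CPM, most narrowly in exposed wild type replicate 2 (74.4 and 62.3). Per kilobase, over 9967 and 7464 exon bases, Col4a3 was the lower there. The place of Col4a5 also differed between libraries. In exposed wild type replicate 2 it had 45.2 CPM, below Col4a1 (62.3) and Col4a2 (47.7). Per kilobase, over 6718, 7464 and 6619 exon bases, Col4a5 was the lowest of these there. In knockout with hydroquinone replicate 3 it had 135 CPM, above Col4a1 (88.3) and Col4a2 (73.3). Of the laminin alpha chains, Lama5 had 4.71 CPM per kilobase, Lama4 had 2.30, Lama2 had 2.10 and Lama1 had 0.23, the lowest of the 40. Lama1 counts were between 27 and 123 per library, so its counting error was the largest of the 40.

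Type I collagen transcripts led the fibrillar group, with 32.0 CPM per kilobase for Col1a1 and 31.4 for Col1a2. Col3a1 had 13.2, and the collagen V chains, which set fibril diameter, had 3.38 (Col5a2) and 3.26 (Col5a1). The matricellular gene Tnc, which is raised in wound repair, had 1.88, and Matn2, an adaptor that links matrix fibrils, had 6.16.

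The 40 genes varied more between libraries than tested genes in general. The SD of log2(CPM + 1) over the 16 libraries had a median of 0.34 for the members and 0.27 for all 15380 genes, and 0.22 for the 10824 genes that averaged 10 CPM or more. The median SD was 0.32 in fibrillar collagens, 0.33 in basement membrane genes and 0.40 in other matrix genes. Col1a1 varied most (SD 0.56, 92.9 to 365 CPM), and Agrn, the heparan sulfate proteoglycan agrin, varied least (SD 0.21, 63.3 to 103 CPM). Matn2 ran from 28.9 to 50.01 CPM, with an SD of 0.25.

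Hydroquinone did not move any of the 40 genes past the threshold, an adjusted p below 0.05 in edgeR's quasi-likelihood test. In wild type 0 of 40 members passed, where 0.0065% of all tested genes did. Among knockouts 0 of 40 passed, against 0.0455% of genes, and with both genotypes averaged 0 of 40, against 0.0845%. DESeq2 and limma also called 0 members in each of these comparisons. At an unadjusted p below 0.05 there were 0 members in wild type (4.28% of all genes), 1 in knockout (2.96%) and 2 averaged over genotype (5.72%), shares that for 40 genes amount to between 0% and 5% and lie near or under the background. The 95% interval of the change lay within a 2-fold change for 37 members in wild type, 33 in knockout and 39 averaged.

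Tnc and Postn, matricellular genes linked to wound repair, had the smallest p-values for hydroquinone averaged over genotype and did not pass. Tnc read 9.80, 14.0, 8.48 and 12.8 CPM in untreated wild type and 10.4, 12.2, 22.1 and 13.2 with hydroquinone. In knockouts it read 12.6, 11.5, 9.91 and 16.6 CPM untreated and 13.8, 27.6, 18.5 and 20.4 with hydroquinone. The ranges overlapped in both genotypes, and the highest values were 1 wild-type and 1 knockout library with hydroquinone. The averaged log2 fold change was 0.51 ± 0.19 (SE), with adjusted p = 0.823, and in knockouts alone it was 0.66 ± 0.27, with adjusted p = 1.00.

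Postn, the gene of periostin, read 22.7, 19.6, 30.3 and 16.8 CPM in untreated and 21.02, 36.7, 27.5 and 28.1 in exposed wild type. Its knockout values were 23.3, 27.4, 13.9 and 14.1 CPM untreated and 19.3, 33.6, 25.2 and 35.6 with hydroquinone, so that both pairs of groups overlapped. The averaged log2 fold change was 0.44 ± 0.19 (SE, adjusted p = 0.868). In knockouts alone Postn had 0.53 ± 0.27, Lamb2, a laminin beta chain, 0.27 ± 0.16 and Col5a2, a collagen V chain, 0.31 ± 0.22, each with adjusted p = 1.00.

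Lama1 had the smallest p of the basement membrane genes, with -0.52 ± 0.25 averaged (adjusted p = 0.875), and Col1a1 that of the fibrillar collagens, with 0.37 ± 0.26 (adjusted p = 0.914). Within libraries whose identifier carries no letter the Col1a1 value turned to -0.29.

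Col15a1, a basement membrane collagen of capillaries and muscle, was the only member whose wild-type groups did not overlap. It read 16.05, 23.1, 19.2 and 15.8 CPM untreated and 9.78, 15.7, 12.0 and 11.0 with hydroquinone. All exposed libraries lay lower. Groups apart in either direction were seen for 1 of 40 members (2.50%) and 2.91% of all genes, and the gap between the groups was narrow. Its log2 fold change was -0.61 ± 0.34 (adjusted p = 0.994). Lama1, with -0.67 ± 0.35, had the smallest p of the members in wild type, Fbln1 had -0.38 ± 0.24, and Col5a1, first of the fibrillar collagens by p, had -0.20 ± 0.18. Adjusted p-values were 0.994 for these 3 as well. In knockouts, 0 of 40 members had groups apart, against 1.91% of genes in either direction.

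Under hydroquinone the 3 gene groups had medians on both sides of 0 in wild type and above 0 in knockout, and differences between the groups were not tested. In wild type the median log2 fold change was 0.04 for fibrillar collagens, -0.07 for basement membrane and 0.11 for other matrix, and in knockout it was 0.31, 0.16 and 0.12, beside medians of -0.00020 and -0.0014 over all genes. In wild type 3 of 5 fibrillar, 4 of 18 basement membrane and 10 of 17 other matrix genes were higher with hydroquinone, and in knockout 5 of 5, 12 of 18 and 13 of 17. The knockout medians depended on which libraries were used. Each knockout group has 2 libraries of each identifier form. Libraries without a letter gave -0.31, -0.23 and -0.38 for the 3 groups, and libraries with a letter gave 0.88, 0.46 and 0.55. In the first set 0 of 5 fibrillar, 4 of 18 basement membrane and 4 of 17 other genes were higher with hydroquinone, and in the second 5 of 5, 17 of 18 and 17 of 17. The direction of the matrix change in knockouts therefore did not hold within the forms.

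**Figure D2:**
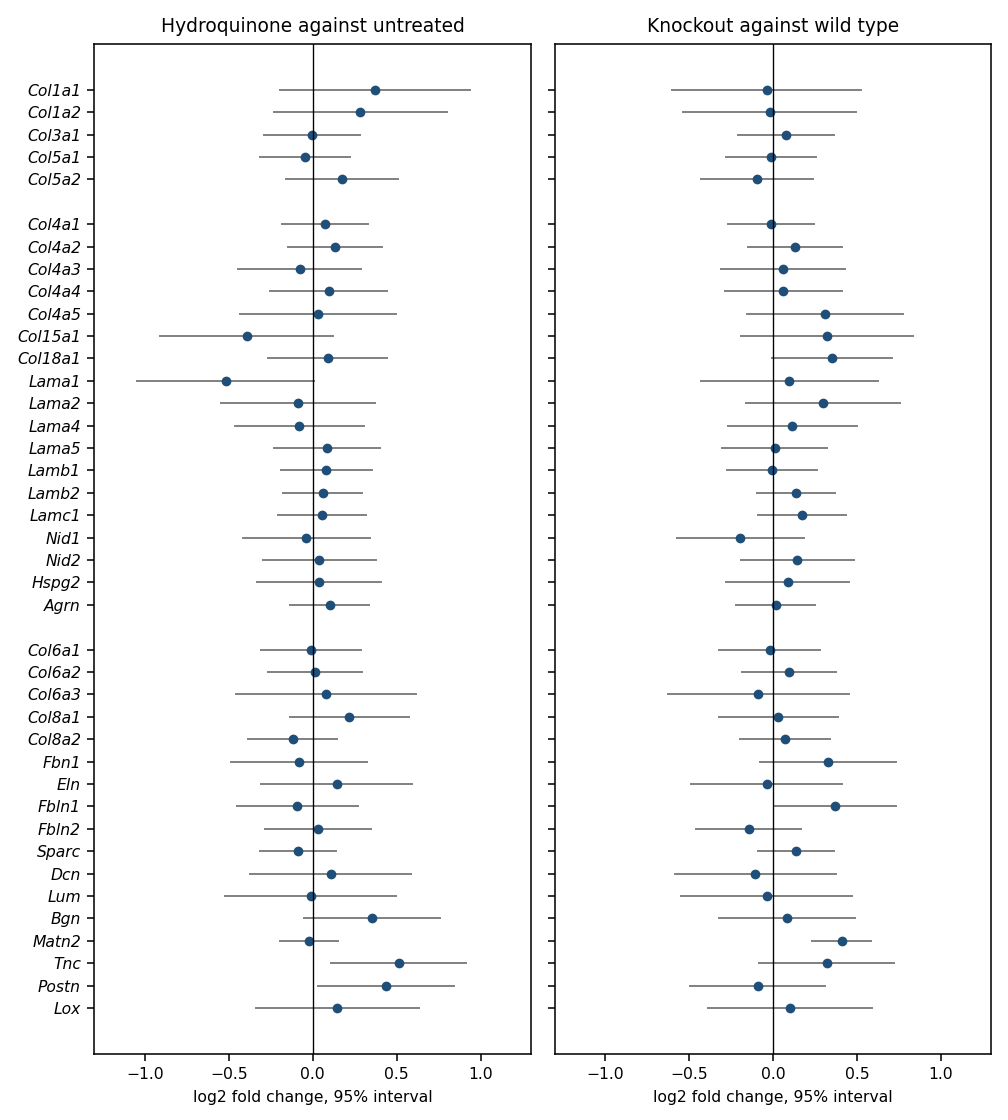
Log2 fold change (points) with 95% intervals (lines) of each matrix gene, for hydroquinone against untreated averaged over genotype and for knockout against wild type averaged over treatment. Nearly all intervals cross 0, and Matn2 in the right panel, at 0.41, has the narrowest interval away from it.

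Loss of Sucnr1 likewise moved 0 of 40 members past the threshold in edgeR: untreated, under hydroquinone and averaged over treatment, each beside 0% of all genes. DESeq2 and limma called 0 as well. At an unadjusted p below 0.05 there were 1 member untreated (1.32% of all genes), 3 under hydroquinone (4.18%) and 2 averaged (2.96%). These were Matn2 in all 3 comparisons, Fbln1 under hydroquinone and averaged, and Lamb2 under hydroquinone. The interaction, the difference between genotypes in the response to hydroquinone, had 0 members past the threshold (0% of genes) and 0 at an unadjusted p below 0.05 (1.92%). The 95% interval lay within a 2-fold change for all 40 members untreated, 34 under hydroquinone, 40 averaged and 26 for the interaction.

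Matn2 had the smallest p of all 15380 genes for knockout against wild type averaged over treatment, and did not pass after adjustment. Because Matn2 was listed with earlier results of these data known, this rank is a description only. The gene, at chr15:34306677-34436273 on the plus strand of GRCm38, encodes matrilin-2, a multidomain protein that joins collagen, fibrillin and laminin networks. It read 35.6, 32.2, 33.3 and 39.5 CPM in untreated wild type and 35.9, 44.8, 38.4 and 49.6 in untreated knockout. With hydroquinone it read 30.4, 31.1, 34.5 and 28.9 CPM in wild type and 39.8, 50.01, 46.2 and 47.3 in knockout. Untreated groups overlapped, whereas under hydroquinone every knockout library lay above every wild-type one. Groups apart in either direction were seen for 1 of 40 members (2.50%) and 2.33% of all genes under hydroquinone, and for 0 of 40 and 1.05% of genes untreated. Group means were 35.1 ± 3.24 and 42.2 ± 6.19 CPM untreated and 31.2 ± 2.37 and 45.8 ± 4.33 CPM under hydroquinone, wild type first (SD, n = 4 libraries each).

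The log2 difference for Matn2 was 0.41 ± 0.08 averaged (SE, 95% interval 0.24 to 0.58), with adjusted p = 0.987. Under hydroquinone it was 0.55 ± 0.11 (adjusted p = 1.00, rank 3 of all genes by p), and untreated 0.26 ± 0.11 (adjusted p = 1.00). DESeq2's Wald test gave the averaged difference the smallest adjusted p of any setting, 0.0674, which does not pass either. In libraries without a letter it was 0.36 ± 0.13 and in those with a letter 0.50 ± 0.14. Hydroquinone itself gave -0.17 ± 0.11 in wild type, 0.12 ± 0.11 in knockout and -0.02 ± 0.08 averaged, with adjusted p-values of 0.994, 1.00 and 0.967. The interaction was 0.29 ± 0.16 (adjusted p = 1.00), so a difference between the untreated and exposed genotype effects was not shown.

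Among the other matrilins, Matn1 had 2 counts in all and was not tested, while Matn3 and Matn4, at 14.3 and 11.8 CPM on average, were tested in the lists of further matrix chains. Of the 6263 exon bases of Matn2, 70 (1.12%) overlap another gene. Of the other members, Fbln1 (r = 0.72 over 13 mice) and Col18a1 (0.63) had the most similar pattern to Matn2, and Nid1 (-0.30) and Dcn (-0.30) the least. The median over its 39 pairs was 0.20, given as a description.

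The same 2 groups also lay apart for markers of corneal keratocytes and endothelium. The mean log2(CPM + 1) of Kera and Slc4a11, the 2 of 3 listed markers that could be tested, was 3.21 to 3.98 in wild type and 1.52 to 2.73 in knockout under hydroquinone. Summed, they held 19.3 to 45.2 and 4.66 to 13.4 CPM. With that level as a covariate, chosen after the data were seen, the Matn2 difference under hydroquinone was 0.60 ± 0.17. Because that level did not overlap between the 2 groups, this fit cannot separate it from genotype, and its part was not tested. Fewer cells of a type and less RNA per cell cannot be told apart in such bulk samples.

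**Figure D3:**
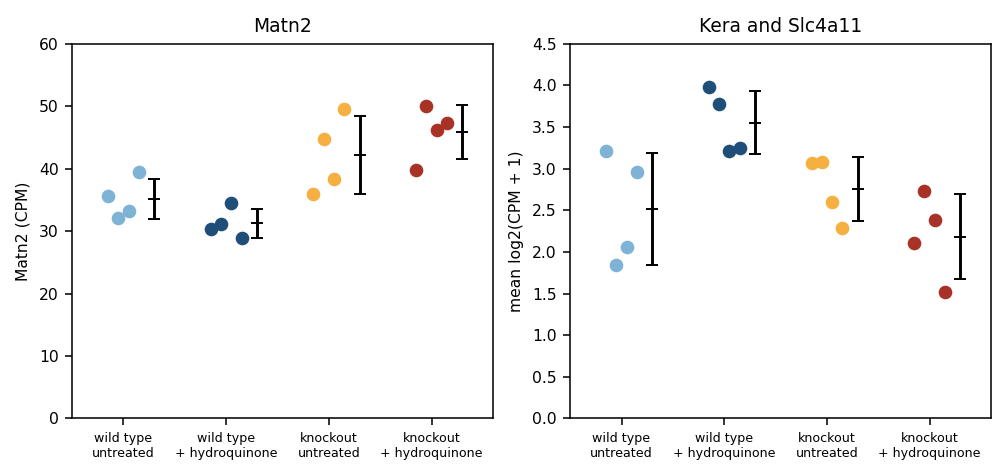
Left, Matn2 in CPM, and right, the mean log2(CPM + 1) of Kera and Slc4a11, in each of the 4 libraries of each group, with the mean and SD as a bar beside the points. Under hydroquinone, knockout libraries lie above wild type for Matn2 (39.8 to 50.01 against 28.9 to 34.5 CPM) and below it for the corneal markers.

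Fbln1, at chr15:85205949-85286535, followed Matn2 under hydroquinone. It read 160, 196, 228 and 176 CPM in wild type and 181, 318, 417 and 288 in knockout, where the lowest knockout library lay inside the wild-type range. The log2 difference was 0.67 ± 0.24 (adjusted p = 1.00), and averaged over treatment it was 0.37 ± 0.17 (adjusted p = 0.987). Lamb2, the beta chain of laminins of mature basement membranes, read 128, 126, 174 and 128 CPM in wild type and 143, 147, 203 and 217 in knockout. Its difference was 0.35 ± 0.16 (adjusted p = 1.00), and 1 wild-type library stood well above the other 3.

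Col18a1 followed Matn2 and Fbln1 for the averaged genotype comparison, with 0.35 ± 0.17 (adjusted p = 0.987). Its group means were 350 ± 63.7 CPM in wild type and 406 ± 55.7 CPM in knockout untreated, and 338 ± 105 and 475 ± 138 CPM under hydroquinone (SD, n = 4 libraries each). Of the fibrillar collagens the smallest p was that of Col5a2 untreated (-0.23 ± 0.22) and averaged (-0.10 ± 0.16), and that of Col3a1 under hydroquinone (0.20 ± 0.19). Adjusted p-values were 1.00, 0.987 and 1.00. Untreated, Col4a1 had the smallest p of the basement membrane genes, with -0.20 ± 0.17 (adjusted p = 1.00). Among the interactions Lamb2 had the smallest p of the members, with 0.42 ± 0.22, while Fbln1 had 0.59 ± 0.34 and Col5a1 0.30 ± 0.25 (adjusted p = 1.00 for all 3).

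For genotype, the basement membrane genes under hydroquinone had the median farthest from 0 of the 3 gene groups. Averaged over treatment the medians were -0.02 for fibrillar collagens, 0.11 for basement membrane and 0.07 for other matrix, beside 0.02 over all genes. Untreated they were -0.04, 0.01 and 0.08, and under hydroquinone 0.04, 0.24 and 0.04. In the last comparison 15 of 18 basement membrane genes were higher in knockout, as were 53.1% of all genes, whose median was 0.015. Within libraries without a letter the basement membrane median was -0.08 with 8 of 18 higher, and within those with a letter 0.52 with 17 of 18, where wild type with hydroquinone has 1 library. The interaction had medians of 0.23, 0.27 and 0.12 in the 3 groups, and 32 of 40 members were above 0. It too changed direction with the form, from -0.10, -0.16 and -0.32 without a letter to 0.72, 0.62 and 0.46 with one. With the keratocyte and corneal endothelium marker level as a covariate, the interaction medians were -0.20, -0.17 and -0.40.

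Enzymes that make, cut and bind this matrix were examined through 4 lists. They held 24 tested genes of 25 for collagen processing, 17 of 17 proteases and inhibitors, 20 of 20 matrix receptors, and 29 of 30 further matrix chains. None of the 4 lists had a gene past the threshold, higher or lower, in any of the 7 comparisons by edgeR, and at an unadjusted p below 0.05 there were between 0 and 5 genes per list. The highest counts were those of the further matrix chains for knockout against wild type, with 5 of 29 under hydroquinone (4.18% of all genes) and 4 of 29 averaged over treatment (2.96%). List medians of the log2 fold change lay between -0.11 and 0.35, beside medians of -0.0014 to 0.02 over all genes.

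For hydroquinone averaged over genotype, Plod3, a lysyl hydroxylase and glycosyltransferase of collagen, had the smallest p in collagen processing. Its means were 37.5 ± 4.22 and 38.7 ± 1.06 CPM in wild type and 34.3 ± 2.32 and 44.5 ± 3.85 CPM in knockout, untreated first (SD, n = 4 libraries each). The log2 fold change was 0.21 ± 0.07 (adjusted p = 0.772). Tnxb, the tenascin-X gene of connective tissue, had -0.33 ± 0.11 (adjusted p = 0.808), and Matn3 had 0.74 ± 0.32 (adjusted p = 0.868). Timp4, an inhibitor of matrix metalloproteinases, and Adamts4, an aggrecanase, had -0.63 ± 0.28 and -1.27 ± 0.58 (adjusted p = 0.868 and 0.869). Crtap, a collagen prolyl hydroxylation cofactor, had 0.19 ± 0.10, and the integrin genes Itga10 and Itga7 had -0.49 ± 0.28 and 0.19 ± 0.11, with adjusted p-values from 0.905 to 0.914.

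For knockout against wild type averaged over treatment, Col2a1, the cartilage and vitreous collagen, had 0.95 ± 0.31 and Ltbp2, an elastic fibre protein, 0.57 ± 0.23. Mean Col2a1 levels were 7.99 ± 3.94 and 4.97 ± 1.55 CPM in wild type and 15.3 ± 10.3 and 9.71 ± 3.14 CPM in knockout, untreated first (SD, n = 4 libraries each). Tll1, a procollagen protease, had 0.44 ± 0.18 and P4ha2, a prolyl hydroxylase subunit, 0.18 ± 0.08. Htra1, a serine protease whose locus is tied to macular degeneration, had 0.21 ± 0.10, and Ctsk, a collagen-cleaving cathepsin, -0.20 ± 0.16. The laminin receptor genes Itga7 and Itga6 had 0.22 ± 0.11 and -0.32 ± 0.20. Adjusted p-values were 0.987 for all 8 genes.

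Genes whose products assemble together or share fibrils mostly varied together from mouse to mouse. For each of 13 mice, with the eyes of a mouse averaged, log2(CPM + 1) was correlated in 12 pairs, with 100000 permutations and adjustment over the pairs. Pearson's r passed in 11 pairs, and its median over the 12 was 0.84, beside 0.49 over the other 768 pairs of members. All pairs share library totals and tissue make-up, so the second median is the level against which the first should be read. The permutation p-values test r against 0 and not against that level.

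Col1a1 and Col1a2, which form collagen I, had the highest r, 0.985 (Spearman's coefficient 0.978, permutation p = 1e-05, the smallest that the permutations can give, adjusted p = 8e-05). Without the 2 mice farthest from the median r was 0.974. Col4a3 and Col4a4, which flank the 71 bases shown above, had r = 0.952 (Spearman's coefficient 0.901, permutation p = 2e-05, adjusted p = 8e-05), and 0.863 without those 2 mice. Col4a1 and Col4a2, the other head-to-head pair, had r = 0.880 (Spearman's coefficient 0.846, permutation p = 0.00011, adjusted p = 0.00022), and 0.733. The chains of collagen IV that are not neighbours in the genome, Col4a4 and Col4a5, had 0.607 (Spearman's coefficient 0.604, permutation p = 0.027, adjusted p = 0.033), which fell to 0.340 and rests on 2 mice.

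Laminin chain genes differed in how closely they followed Lamc1, the common gamma chain. Lamb2 had r = 0.890 (Spearman's coefficient 0.901, permutation p = 2e-05, adjusted p = 8e-05), whereas Lamb1 had 0.564 (Spearman's coefficient 0.604, permutation p = 0.043, adjusted p = 0.047), which fell to 0.312 without 2 mice. Nid1, whose product binds the gamma chain, had 0.514 and did not pass (Spearman's coefficient 0.489, permutation p and adjusted p = 0.072). The difference between these correlations was not tested.

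The remaining pairs passed. Dcn and Lum, proteoglycans that share collagen fibrils, had r = 0.882 (Spearman's coefficient 0.835, adjusted permutation p = 0.00017) and 0.719 without 2 mice. Col6a1 had 0.846 with Col6a3 (adjusted permutation p = 0.00038) and 0.839 with Col6a2 (adjusted permutation p = 0.00017), the chains of the beaded collagen VI. Col8a1 and Col8a2 had 0.743 (Spearman's coefficient 0.786, adjusted permutation p = 0.0054), and 0.704 without 2 mice. Col5a1 and Col5a2 had 0.726 (Spearman's coefficient 0.764, adjusted permutation p = 0.0077) and 0.681. Within the 2 identifier forms, 4 of the passing pairs ceased to pass in libraries without a letter and 4 in libraries with one, with r from 0.329 to 0.766 there.

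Over the 13 mice the members were also correlated with markers of 4 cell types. This comparison was added after the data were seen, with 160 relations (40 genes against 4 marker lists) and adjustment over all of them. RPE markers went with 14 members, endothelial markers with 12 and fibroblast markers with 6, all positively, and rod markers with 2, negatively. Some members passed with more than 1 list, such as Col4a2 (r = 0.793 with RPE and 0.715 with endothelial markers). Passing or not, r was positive for 38 of 40 members with RPE markers and for 39 with endothelial markers. Differences between these correlations were not tested. An r of at least 0.7 with the RPE markers was reached by 30% of members and 6.68% of all tested genes. For endothelial markers the shares were 20% and 1.55%, and for fibroblast markers 15% and 0.982%.

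Collagen VIII and nidogen-2 transcripts followed the RPE markers most closely. Col8a2 had r = 0.877 (Spearman's coefficient 0.863, permutation p = 0.0001, adjusted p = 0.006), Nid2 had 0.876 (Spearman's coefficient 0.929, permutation p = 0.00012, adjusted p = 0.006) and Col8a1 had 0.875 (Spearman's coefficient 0.901, permutation p = 0.00011, adjusted p = 0.006). Without the 2 mice farthest from the median these were 0.768, 0.860 and 0.847. The same genes had r of 0.25, 0.55 and 0.47 with endothelial markers, and 0.30, 0.59 and 0.66 without 2 mice. Spearman's coefficients with those markers were 0.43, 0.64 and 0.67. Neither coefficient passed over the 13 mice (adjusted permutation p at least 0.055).

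All 5 fibrillar collagens passed with the endothelial markers, with a median r of 0.76, though Col3a1 fell from 0.676 to 0.408 without 2 mice and its rank correlation did not pass (adjusted permutation p = 0.09). Col5a1 also passed with RPE markers (r = 0.748, adjusted permutation p = 0.03) and Col5a2 with fibroblast markers (r = 0.706, adjusted permutation p = 0.043). Without 2 mice these were 0.628 and 0.465. With endothelial markers Col1a2 had 0.825 (Spearman's coefficient 0.918, permutation p = 0.00015, adjusted p = 0.006) and 0.930 without 2 mice. Lum had 0.796 (Spearman's coefficient 0.918, permutation p = 0.0013, adjusted p = 0.019). Dcn went with the fibroblast markers (r = 0.801, Spearman's coefficient 0.692, permutation p = 0.0012, adjusted p = 0.019), though r was 0.462 without 2 mice, and so rests on them. With endothelial markers Dcn had r = 0.621, which did not pass (adjusted permutation p = 0.085), and 0.735 without 2 mice, while Spearman's coefficient was 0.857 and passed (adjusted permutation p = 0.0062). Matn2 had 0.11 with RPE, 0.27 with endothelial and -0.50 with fibroblast markers, and passed with none of the 4 lists.

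**Figure D4:**
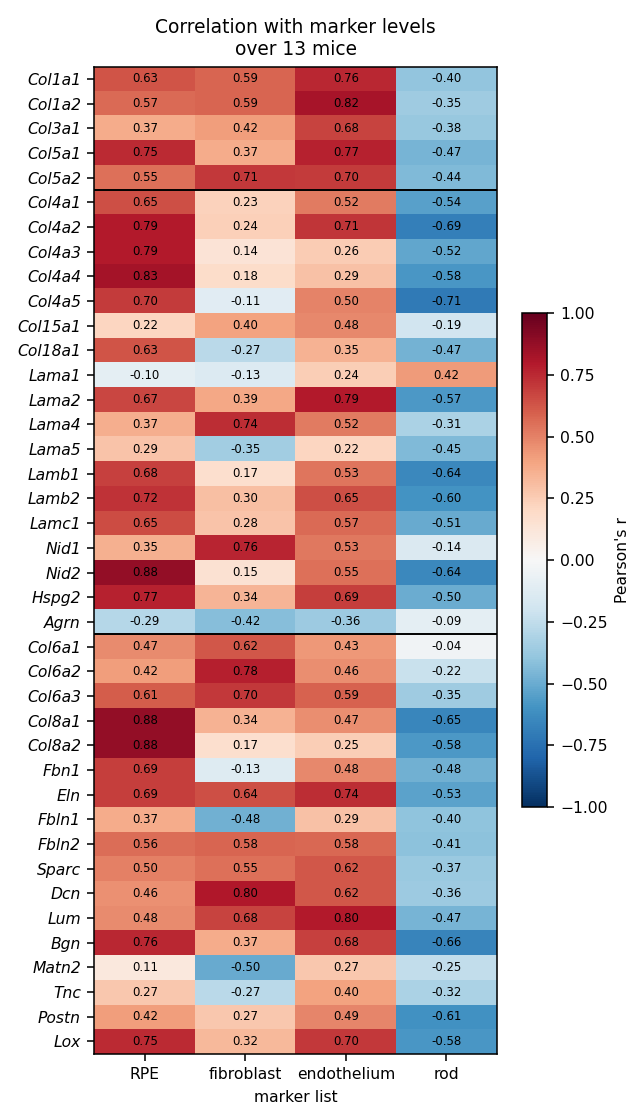
Pearson's r over 13 mice between each matrix gene and the mean log2(CPM + 1) of RPE, fibroblast, endothelial and rod markers, with lines between fibrillar collagens, basement membrane genes and other matrix genes. Col8a1, Col8a2 and Nid2 reach 0.88 with RPE markers, while fibrillar collagens range from 0.68 to 0.82 with endothelial markers.

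Both eyes of a mouse could differ by more than 2-fold in single matrix genes. In each of 3 untreated mice with libraries from both eyes, 1 eye was of each identifier form. A difference between eyes therefore cannot be told apart from a difference between forms. In the knockout mouse, Col1a1 read 240 and 92.9 CPM, Dcn 1267 and 537 CPM, and Col15a1 34.4 and 9.62 CPM. The eye without a letter was higher in each, by 2.58-fold, 2.36-fold and 3.57-fold in CPM. On the log2(CPM + 1) scale 6 of 40 members differed by at least 2-fold, as did 1336 of 15380 tested genes. Lama1, at 1.68 and 3.97 CPM, differed by 2.37-fold in CPM but by less than 2-fold on that scale. All 5 fibrillar collagens were lower in the eye with a letter, against 8 of 18 basement membrane genes.

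The wild-type mice went opposite ways. In the one with replicates 3 and 4, 36 of 40 members were lower in the eye with a letter, and Lum fell from 224 to 104 CPM. In the other, with replicates 1 and 2, 6 of 40 were lower and none differed by 2-fold. Matn2 differed between eyes by 1.07-fold, 1.19-fold and 1.11-fold. Marker levels differed between the same eyes. The fibroblast marker level was 5.98 and 5.34 in the knockout mouse and 5.94 and 5.24 in the wild-type mouse of replicates 3 and 4 (mean log2(CPM + 1), eye without a letter first), and 5.84 and 6.02 in the other wild-type mouse. The endothelial marker level was 5.44 and 4.82, 5.78 and 5.24, and 4.998 and 5.41 in these 3 mice, lower or higher in the same eye as most matrix genes. Rod markers were higher in the eye with a letter in all 3 mice, at 3.93 and 7.56, 5.69 and 8.44, and 6.42 and 8.76. Their part in the result was not tested.

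**Figure D5:**
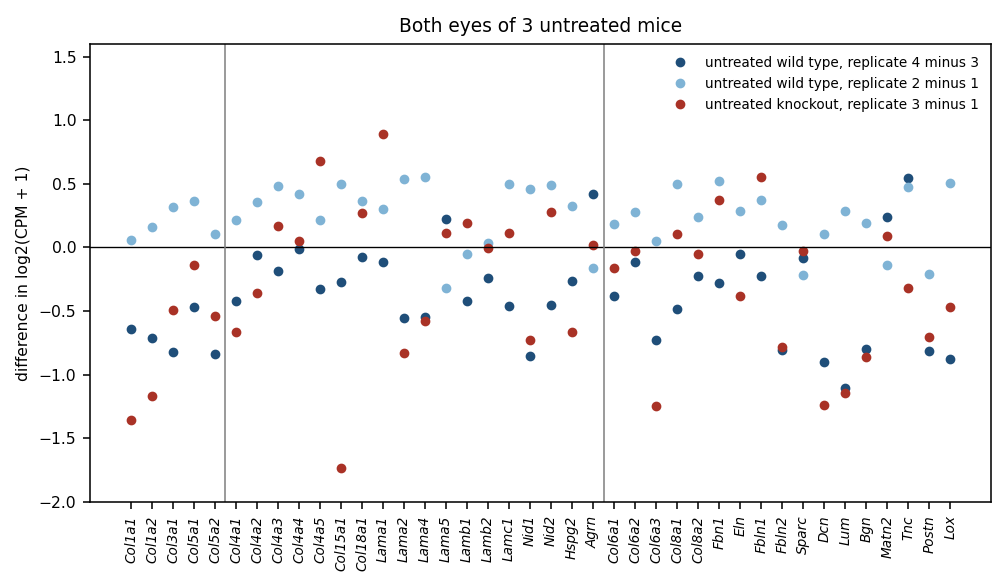
Difference in log2(CPM + 1) between the eyes of 3 untreated mice, eye with a letter in its library identifier minus the other, for each matrix gene, with lines between the 3 gene groups. Points of one wild-type mouse lie mostly above 0, those of the other mostly below it, and Col15a1 and Col1a1 in the knockout mouse are lowest at -1.74 and -1.36.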

How the data were processed

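The authors deposited 1 table of counts by Ensembl gene; although its name says FPKM, 100% of its values are whole and library totals differ, so they were treated as counts. The submitters' processing notes name STAR, Cufflinks, DESeq2 and mm10; their order, the annotation and the strand setting are not given in the sources used here, so reads of overlapping genes (20.1% of Fbn1 exon bases, 8.45% of Nid2 and 5.65% of Col4a3) cannot be assigned to one of them. Identifiers were matched to GENCODE release M21 (GRCm38) for 51719 of 51912. Coordinates are 1-based.

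Counts were scaled by TMM and tested with edgeR 4.0.16 (R 4.3.3) quasi-likelihood F tests, with 4 group means in 1 model over 16 libraries and 15380 genes that averaged 1 CPM or more, which held 99.8% of counts. P-values were adjusted by the Benjamini-Hochberg method over these genes, with a threshold of 0.05. SEs were derived from the F statistic. Levels are TMM-scaled CPM, given as library values or mean ± SD, and scores are log2(CPM + 1) with a pseudocount of 1. Alternatives were DESeq2 1.42.0 (size factors, Wald test), limma 3.58.1 with the mouse as a random block (consensus correlation -0.0202), summed eyes, other filters, covariates and each library left out. On simulated counts for hydroquinone in knockout (15380 genes, 200 changed), the test found 49% of genes changed 2-fold and 80% of those changed 4-fold, and 3 of its 132 calls were false. P-values measure the spread between libraries, some of which share a mouse. No 2 libraries of a group were copies (chi-square per degree of freedom at least 23.6).

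The members and lists were chosen with earlier results of these data known. Every member could be named with its level. Fold changes are given for members past the threshold, the 3 of smallest p per comparison, the smallest-p member of each of the 3 gene groups, Matn2, and 2 genes per further list in the averaged comparisons. Chain pairs were tested by permutation over 13 mice. Replicate numbers follow accession order.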

Additional observations from a re-analysis of the deposited data

Results flagged for a closer look

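Each member was searched in each group of 4 libraries for 1 library far from the others, by the gap to its nearest neighbour as a share of the group's range. Of 160 sets, 5 exceeded 0.829, and chance flags about 1 in 20, or 8.0 of them. Lamb2 in wild type with hydroquinone had a gap of 0.965 of the range, from replicate 3 at 174 CPM against 126 to 128. In the same library Fbln2, an elastic fibre glycoprotein, had a gap of 0.934 (33.6 CPM against 24.2 to 24.8). Eln, the elastin gene, had 0.877 in knockout with hydroquinone, from replicate 4 at 63.7 CPM against 34.5 to 37.3. In untreated knockout replicate 4 was low for Sparc (0.858, 501 CPM against 703 to 743) and for Col6a2 (0.842, 35.3 CPM against 51.7 to 55.6).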

How the results depend on the processing

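The count of members past the threshold was 0 in every comparison fitted under other settings with edgeR, DESeq2 and limma. These were 14 settings and 8 left-out libraries for each comparison of 2 groups, and 13 settings and 16 left-out libraries for each averaged comparison and the interaction; 1 member had no adjusted p in DESeq2. Leaving out 1 library gave Matn2 differences of 0.3662 to 0.4433 between genotypes averaged over treatment and 0.5087 to 0.6152 under hydroquinone. Without knockout untreated replicate 4, the untreated difference was 0.18, and Matn2's averaged hydroquinone change turned to 0.0089, as it did to 0.0055 without wild type untreated replicate 4 and to 0.0060 without knockout hydroquinone replicate 1, over a range of -0.0595 to 0.0089. Of the genes whose fold changes are given by the naming rule, those that changed sign in libraries without a letter were, for hydroquinone in knockout, Lamb2 (-0.1511) and Col5a2 (-0.2358), for hydroquinone averaged, Col1a1 (-0.2868), and for the interaction, Col5a1 (-0.0299). With the keratocyte and corneal endothelium marker level as a covariate, Col5a1 turned to 0.1162 for hydroquinone in wild type and -0.2047 for the interaction, and Col3a1 to -0.0629 for knockout under hydroquinone, where the basement membrane median became -0.0003 and the other matrix median -0.2292. With the same covariate the interaction medians turned to -0.2047 for fibrillar collagens, -0.1713 for basement membrane and -0.3958 for other matrix. With the fibroblast marker level, Col5a2 averaged over treatment turned to 0.0281. The keratocyte and corneal endothelium level did not overlap between genotypes under hydroquinone, so it cannot be separated from genotype there. The marker covariates were added after the data were seen, and the cause was not tested.

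Among chain pairs, r no longer passed in libraries without a letter for Col4a1 and Col4a2 (0.6862), Col4a4 and Col4a5 (0.5596), Col8a1 and Col8a2 (0.6758) and Lamb1 and Lamc1 (0.3294). In libraries with a letter it did not pass for Col6a1 and Col6a3 (0.6080), Col4a4 and Col4a5 (0.5234), Col8a1 and Col8a2 (0.7402) and Lamb1 and Lamc1 (0.7655); these sets hold 9 and 7 mice. Without the 2 farthest mice Col4a4 and Col4a5 (0.3398) and Lamb1 and Lamc1 (0.3124) did not pass, and with DESeq2 size factors Lamb1 and Lamc1 (0.5450) did not. Nid1 and Lamc1 passed with group means subtracted (0.7745) and in libraries without a letter (0.8371). No paired analysis was possible because replicate numbers follow accession order and the titles give the groups no shared numbers; the mouse block changed no call. With 4 libraries per group, 49% of 2-fold changes were found in simulated counts, so smaller changes may not be detectable at this size.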
